A study of Mus musculus with 2 samples.

Results

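The 10 genes described here, Ifit1, Ifit2, Ifit3, Ifit3b, Isg15, Oasl1, Usp18, Rsad2, Cmpk2 and Ifi44, are antiviral genes switched on by type I interferon. They were picked by symbol from the 31053 genes counted in single cells of mouse hearts, and the symbols were chosen with the lower levels of these genes in one of the libraries already known. Their difference between the libraries is therefore a description, with no test. The series holds 2 libraries (10x Genomics 3′ kit, v3.1) of heart cells after removal of cardiomyocytes and of CD45-positive leukocytes. One came from db/+ mice, which carry 1 intact copy of the leptin receptor gene, and the other from db/db mice, which lack a working leptin receptor, given 1% salt; the series title calls the second group an HFpEF model, that is, of a heart that fails while its ejection fraction is kept. The design text gives 4 male hearts per genotype. The sources used here do not give age or background strain, and no cell can be traced to its animal. With 1 library per group no test between groups was possible, all intervals below cover counting error only, and genotype, salt and library cannot be told apart.

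Type I interferons bind the receptor of Ifnar1 and Ifnar2 subunits on almost every cell, and the kinases Jak1 and Tyk2 then activate transcription factors that, with Irf9, bind a DNA element in front of antiviral genes. The IFIT proteins (Ifit1, Ifit2, Ifit3 and Ifit3b) act in complexes that bind foreign RNA and hold back its translation. Isg15 is a ubiquitin-like protein that is joined to other proteins, and Usp18 is the protease that removes it and also a brake on the interferon receptor. Rsad2 (viperin) makes a nucleotide analogue that ends viral RNA chains, and its gene lies beside that of Cmpk2, a nucleotide kinase that supplies it. Oasl1 belongs to the oligoadenylate synthetase family and lowers translation of Irf7, and Ifi44 is an interferon-induced gene of less well known function.

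The 4 Ifit genes lay on chromosome 19 within 99316 bases (34550694 to 34650009, GRCm38), all on the plus strand. Rsad2 (chromosome 12, 26442746 to 26456452, minus strand) and Cmpk2 (26469204 to 26479837, plus strand) were separated by 12751 bases and read away from each other. Isg15 lay on chromosome 4 (156199424 to 156200818), Oasl1 on chromosome 5 (114923240 to 114937915), Usp18 on chromosome 6 (121245906 to 121270917) and Ifi44 on chromosome 3 (151730922 to 151749960). Oasl1 and Usp18 were each overlapped by 1 gene on the other strand, Gm13822 and Gm44148, and the sources used here do not say whether counting used the strand. The longest annotated transcripts of Ifit3 and Ifit3b were 81.2% identical, and the last 300 bases of Ifit3, which a 3′ kit reads, matched Ifit3b at 94.3%, while the last 300 bases of Ifit3b matched Ifit3 at 50.9%. How reads that match both were counted is not known here, so the split of UMIs between these neighbours carries some uncertainty.

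RefSeq promoter windows (GRCm38.p6) were found for 9 of the 10 genes. The core of the interferon-stimulated response element was searched as GAAANNGAAA on both strands (TTTCNNTTTC on the other) in the 250 bases before each start. It was present for 5 of the 9 genes, Ifit1, Ifit3, Ifit3b, Isg15 and Rsad2, and for 3.46% of all 27025 genes with a window. The stretches around the matches are shown because this is the element through which Irf9 acts, with the matches in capitals, on the strand of each gene:
Ifit1: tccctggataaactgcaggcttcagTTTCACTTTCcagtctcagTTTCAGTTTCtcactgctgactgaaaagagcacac
Ifit3: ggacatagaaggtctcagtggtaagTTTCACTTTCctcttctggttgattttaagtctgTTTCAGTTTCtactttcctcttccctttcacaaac
Isg15: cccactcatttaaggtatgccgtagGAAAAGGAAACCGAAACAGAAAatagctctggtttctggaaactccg
Rsad2: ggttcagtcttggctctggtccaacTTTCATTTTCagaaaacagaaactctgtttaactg
They are chr19:34640760-34640838 and chr19:34583348-34583441 on the plus strand, and chr4:156200850-156200921 and chr12:26456538-26456597 on the minus strand. Ifit3b carried the same 94 bases as Ifit3, all identical, at chr19:34607744-34607837. Isg15 held 3 overlapping matches between 56 and 78 bases before its start, the Ifit genes held 2 each, and Rsad2 held 1. Ifit2, Oasl1, Cmpk2 and Ifi44 had no match to these letters in this window.

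After filtering, 4884 db/+ barcodes (median 7048 UMIs) and 4094 db/db and salt barcodes (median 7772 UMIs) remained, and the libraries shared 5 of them. Classes were set by marker UMIs and none of the 10 genes was a marker. Endothelial-like cells numbered 2934 and 2476, fibroblast-like 1248 and 1101, mural-like 160 and 120 and endocardial-like 55 and 50, in that order of libraries. In lists of 8 markers, given as CPM (UMIs per 1000000 UMIs of the class), endothelial-like cells held 7293 and 8376 of the endothelial list. Of the fibroblast list they held 93 and 169. Fibroblast-like cells held 50747 and 55766 of the fibroblast list against 205 and 177 of the endothelial one. The same lists set the classes, so these levels are no independent check of the labels. Leukocyte markers summed to about 2 CPM in both classes and libraries, after barcodes with 2 or more of these markers had been set aside. In endothelial-like cells 97 and 68 barcodes lay just above the lineage threshold of 75%.

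All 10 genes were lower in endothelial-like cells of the db/db and salt library, and their summed level was 1494 CPM (95% interval 1478 to 1511, from 30678 UMIs) in db/+ and 780.5 (767 to 794; 13606 UMIs) in db/db and salt. The log2 ratio used throughout compares CPM plus 10 in both libraries, with db/db and salt over db/+. Its median over the 10 genes was -0.93, against 0.054 over the 8263 genes with a mean of at least 10 CPM. At least 1.5-fold lower on that scale were 7 of the 10 genes, and 1.51% of all these genes were; the members were chosen with this difference known, so nothing is read from that count.

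Isg15 had the largest ratio in endothelial-like cells. It was at 234 CPM (227 to 241) in db/+ and at 79.3 (75.2 to 83.6) in the db/db and salt library, which is a log2 ratio of -1.45. Usp18, which takes Isg15 off its targets, was at 48.5 (45.5 to 51.6) and 24.3 (22.0 to 26.7), a ratio of -0.77. The intervals of both genes were apart, and Isg15 had the larger ratio.

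Among the IFIT genes, Ifit2 was at 171 CPM (166 to 177) in db/+ and 68.1 (64.3 to 72.1) in db/db and salt. Ifit3 was at 122 (117 to 127) and 50.1 (46.8 to 53.5), and Ifit1 at 119 (115 to 124) and 60.9 (57.3 to 64.7). Ifit3b was at 50.8 (47.7 to 53.9) and 19.6 (17.5 to 21.7). Their log2 ratios were -1.21, -1.13, -0.87 and -1.04. The counting interval of the Ifit1 ratio (-0.96 to -0.77) lay apart from those of Ifit2 (-1.30 to -1.13) and Ifit3 (-1.23 to -1.04). Such intervals take each UMI as independent and leave out the spread between cells, so they are too narrow to rank these genes. Ifi44, on another chromosome, had a ratio within the range of these 4 neighbours (-0.998).

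Rsad2 was the gene with most UMIs and among those with the smallest ratios. It was at 527 CPM (517 to 537) in db/+ and 355 (346 to 364) in the db/db and salt library, which is a log2 ratio of -0.56. Its neighbour Cmpk2 was at 97.3 (93.1 to 102) and 64.9 (61.2 to 68.8), a ratio of -0.52. Rsad2 therefore made up 35.2% of the UMIs of the 10 genes in db/+ and 45.4% in db/db and salt, while the share of Isg15 was 15.7% and 10.2%. Ifi44 was at 109 (104 to 113) and 49.4 (46.1 to 52.8), a ratio of -0.998. Oasl1 was the scarcest, at 16.3 (14.6 to 18.1) and 9.41 (8.02 to 10.96), a ratio of -0.44. In no gene did the intervals of the libraries overlap.

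**Figure D1:**
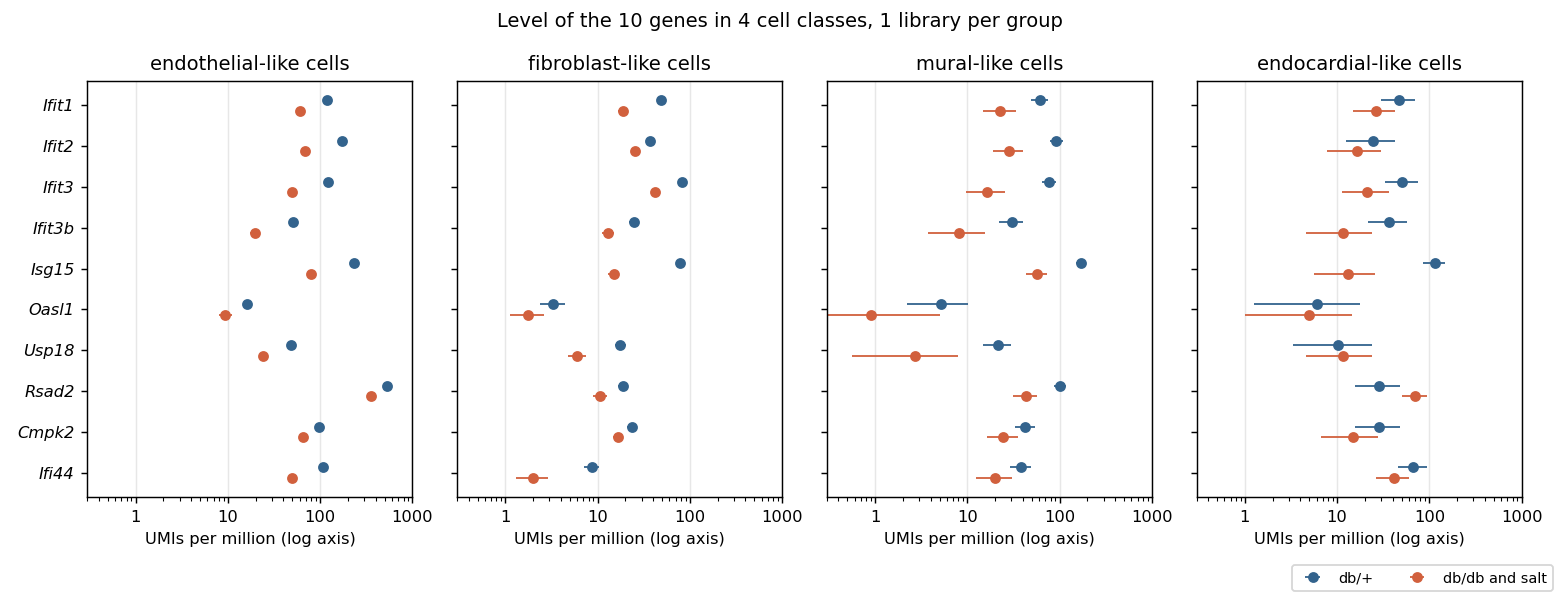
Level of each gene as CPM (log axis) in 4 cell classes, 1 point per library with its exact Poisson 95% interval (counting error only). In endothelial-like cells every db/+ point lies to the right of its db/db and salt point, and Rsad2 is the highest gene in both libraries. In endocardial-like cells Rsad2 lies the other way, and so does Usp18 by a small margin.

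In fibroblast-like cells the summed level was 341 CPM (331 to 352) in db/+ and 151 (145 to 158) in db/db and salt, below the endothelial-like level in both libraries. The median log2 ratio was -0.62, against 0.024 over the 8695 genes with a mean of at least 10 CPM. With every cell thinned to 1500 UMIs the median was -0.31, and Oasl1 and Rsad2 then had ratios of 0.23 and 0.03. Of the 8 members above that mean, 5 were at least 1.5-fold lower, and 0.966% of all such genes were. Isg15 had the largest ratio here too, at 78.5 CPM (73.6 to 83.6) in db/+ and 14.9 (13.0 to 17.1) in db/db and salt, or -1.83. Ifit1 was at 48.1 (44.4 to 52.2) and 18.7 (16.5 to 21.2), a ratio of -1.02. Ifit3 was at 81.2 (76.3 to 86.4) and 41.6 (38.2 to 45.2), a ratio of -0.82. Usp18 (-0.79), Ifi44 (-0.64) and Ifit3b (-0.60) followed, and Ifit2 (-0.39), Cmpk2 (-0.32) and Oasl1 (-0.18) had smaller ratios. The order below Isg15 depended on the 10 CPM added, as several of these genes were low. With 1 CPM added instead, Ifi44 (8.61 and 1.98 CPM) had -1.69 and Usp18 (17.6 and 6.01 CPM) had -1.41. Ifit1 then had -1.32 and Isg15 -2.32. The intervals of 9 genes were apart, and those of Oasl1 overlapped.

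The composition of the group differed between these cell types. Ifit3 held 23.8% and 27.5% of the UMIs of the 10 genes in fibroblast-like cells of the libraries, against 8.2% and 6.4% in endothelial-like cells. Rsad2 held 5.5% and 7.0%. Expressed as a percent of its endothelial-like level, Ifit3 stood at 66.7% and 83.1% in fibroblast-like cells, Ifit3b at 48.9% and 66.6%, and Ifit1 at 40.4% and 30.8%. Rsad2 stood at only 3.58% (18.8 CPM) and 2.99% (10.6). RNA set free from broken cells can enter any droplet. As a gauge of it, the endothelial markers Pecam1, Cdh5 and Cldn5 stood between 2.41% and 2.72% in db/+ and between 1.37% and 2.28% in db/db and salt. They are among the markers that set the classes, so the class limit itself holds their level down and the gauge may be too low. The class average of Rsad2 in fibroblast-like cells was close to the level of these markers, and its ratio there (-0.48) is not read as expression. Its UMIs were not spread evenly. With every cell thinned to 1500 UMIs, 32 db/+ and 12 db/db and salt cells showed at least 3 of the 10 genes. Those cells held 126 of the 234 and 76 of the 145 Rsad2 UMIs, at 330 and 627 CPM against 8.99 and 5.10 in the rest. They were picked partly on Rsad2 itself, and whether their Rsad2 came from free RNA was not tested. Ifi44 stood at 7.93% and 4.00% of its endothelial-like level. These values lay above the markers and below the other 8 genes, of which the lowest was Oasl1 at 20.3% and 18.7%. Cmpk2, beside Rsad2 in the genome, stood at 24.1% and 25.7%.

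**Figure D2:**
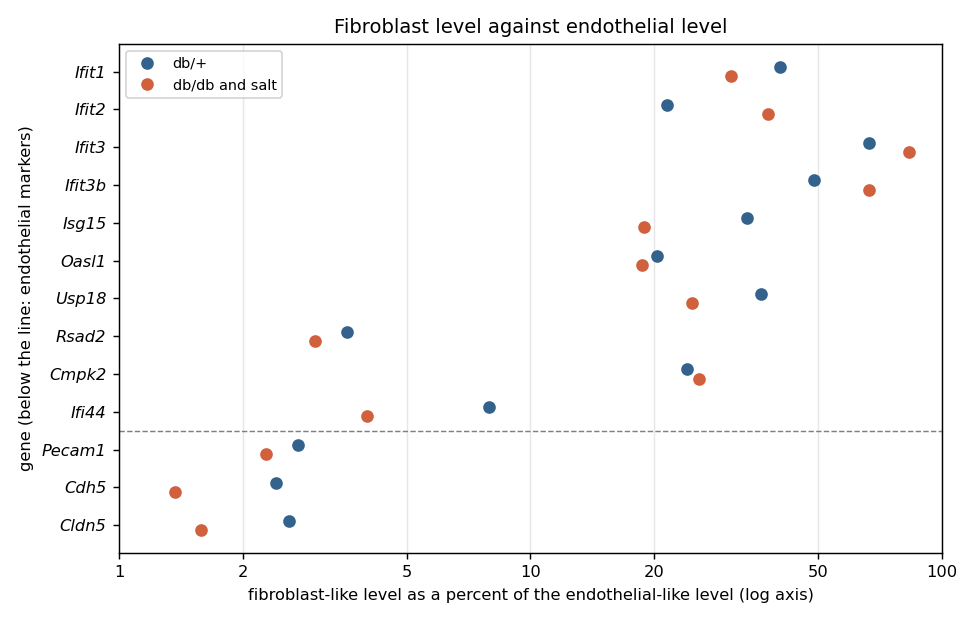
Level in fibroblast-like cells as a percent of the level in endothelial-like cells (log axis), 1 point per gene and library, with 3 endothelial markers below the dashed line as a gauge of free RNA. Rsad2 lies at 3.58% and 2.99%, next to the markers, and Ifi44 at 7.93% and 4.00%, while the other 8 genes lie at 18.7% or more.

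Endothelial-like cells were split by marker scores into capillary-like (639 and 792 cells), arterial-like (364 and 337), venous-like (228 and 137), angiogenic-like (314 and 237) and cycling cells (114 and 36), and 1275 and 937 cells took no subtype. In db/+ the summed level of the 10 genes was 1985 CPM in cycling, 1617 in cells with no subtype, 1583 in venous-like, 1416 in capillary-like, 1202 in arterial-like and 1102 in angiogenic-like cells. In that order the counting intervals of cells with no subtype (1590 to 1645) and venous-like cells (1525 to 1642) overlapped and the other neighbours did not. In db/db and salt the order was 867 in cells with no subtype, 816 in capillary-like, 785 in angiogenic-like, 673 in venous-like, 635 in arterial-like and 360 in cycling cells. Capillary-like (790 to 842) and angiogenic-like cells (749 to 823), and venous-like (624 to 725) and arterial-like cells (603 to 668), then had overlapping intervals. The spread between cells is not part of these intervals.

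The db/+ cycling level rested on few cells. The 3 cycling cells with most of these UMIs held 1578 of 3656, or 43.2%, and 2 of them held 708 and 689. Without the top 3 cells of each library the summed level was 1170 in db/+ and 267 in db/db and salt. In the other subtypes the top 3 cells held between 3.74% (cells with no subtype, db/db and salt) and 30.6% (venous-like, db/db and salt) of the UMIs, and without them the venous-like level was 1353 and 479.

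The median log2 ratio of the 10 genes was -1.20 in venous-like, -0.85 in capillary-like, -0.73 in arterial-like, -0.49 in angiogenic-like cells, -0.92 in cells with no subtype and -2.53 in cycling cells. Isg15 was lower in each of these 6 groups, with ratios from -1.07 in arterial-like to -2.67 in cycling cells. Rsad2 was highest outside cycling cells in cells with no subtype (641 and 429 CPM) and in capillary-like cells (571 and 408), and lowest in arterial-like cells (261 and 153). Isg15 differed in this respect, at 270 and 123 CPM in arterial-like and 199 and 69.2 in capillary-like cells. In angiogenic-like cells Rsad2 (393 and 360), Cmpk2 (74.3 and 74.95) and Oasl1 (6.8 and 7.7) differed little between the libraries, with ratios of -0.12, 0.01 and 0.08. Whether the subtypes differ in their ratio was not tested, since each has 1 library per group.

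**Figure D3:**
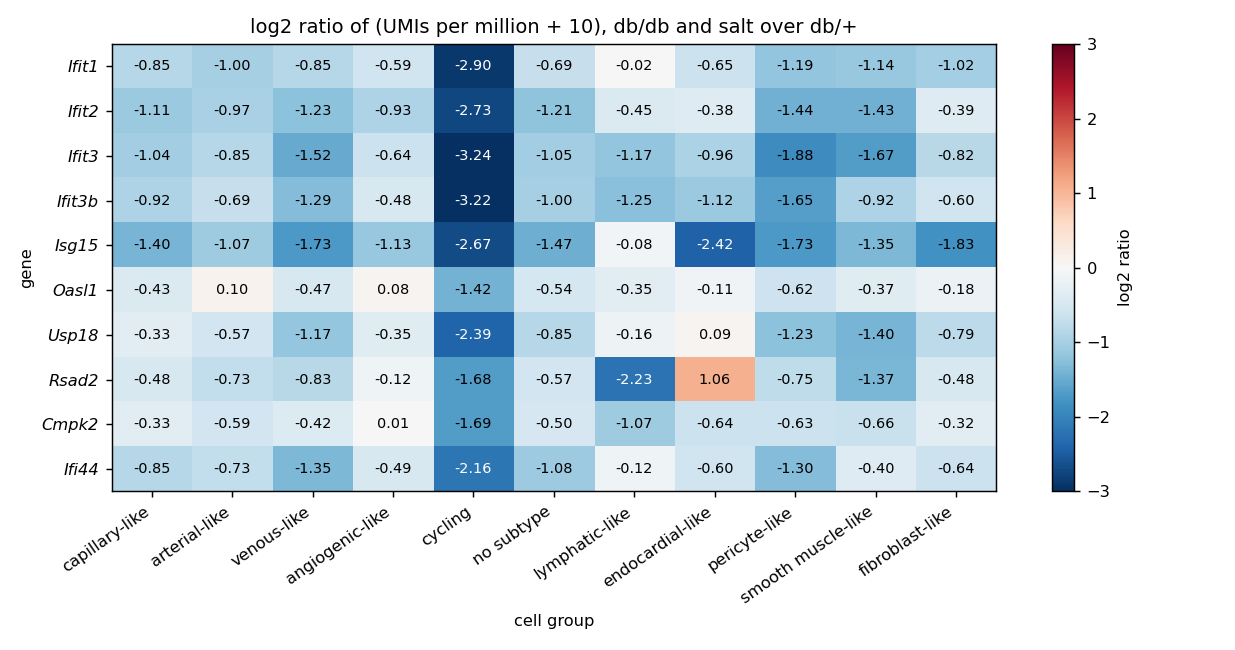
Log2 ratio of CPM plus 10, db/db and salt over db/+, for each gene (rows) and cell group (columns), with blue for lower and red for higher in db/db and salt. Cycling cells hold the lowest values (median -2.53) and Rsad2 in endocardial-like cells the highest (1.06).

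Mural-like cells showed 637 CPM of the 10 genes (598 to 678; 987 UMIs) in db/+ and 223 (196 to 252; 245 UMIs) in db/db and salt, with a median log2 ratio of -1.13. All 9 genes with a mean of at least 10 CPM were at least 1.5-fold lower, as were 3.44% of all genes. These barcodes also carried endothelial RNA: Pecam1 was at 46.6% and 37.9% of its endothelial-like level, and the endothelial list summed to 3702 and 3429 CPM. A stricter class held the 30 and 30 barcodes with at least 95% of lineage marker UMIs from mural markers. Pecam1 was at 1.42% and 2.51% there, a low level that the cut itself favours, since Pecam1 is a lineage marker. The summed level of the 10 genes was 136 CPM (81.6 to 212, from 19 UMIs) and 20.2 (4.17 to 59.1, from 3 UMIs). Isg15 supplied 10 of those 19 UMIs and 1 of the 3. Levels of the single genes in mural cells were thus not measurable at this depth. Pericyte-like cells had 549 and 169 and smooth muscle-like cells 718 and 260 CPM, out of the same barcodes.

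Endocardial-like cells, which line the heart chambers, held 412 CPM (358 to 473; 203 UMIs) in db/+ and 231 (194 to 272; 141 UMIs) in db/db and salt, with a median log2 ratio of -0.62. They also held 3370 and 3107 CPM of the fibroblast list. This class asked for an endothelial share of only 25% of the lineage marker UMIs, where the other classes asked for 75%. Of the 9 genes with a mean of at least 10 CPM, 6 were at least 1.5-fold lower, against 6.85% of all genes, and 1 was at least 1.5-fold higher, against 9.41%. The intervals of the libraries were apart for only 2 of the 10 genes. Of the 23 Ifit1 UMIs of db/+, 17 came from 1 cell. Isg15 was at 114 (56 UMIs) and 13.1 (8 UMIs), a ratio of -2.42. Rsad2 was the gene that was higher, at 28.4 CPM from 14 UMIs in 6 cells of db/+ and 70.4 from 43 UMIs in 8 cells of db/db and salt, a ratio of 1.06. The cells with most Rsad2 UMIs held 5 and 15 of them, and without these cells the levels were 18.8 and 47.2. Both levels were below those of endothelial-like cells, at 5.40% and 19.9% of them. Lymphatic-like cells, of which there were 23 and 28, gave 100 and 59 UMIs of the 10 genes.

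High levels sat in few cells. To compare cells at equal depth each was thinned to 1500 UMIs, which left 2738 and 2373 endothelial-like cells. At least 1 of the 10 genes had a UMI in 66.8% of them in db/+ and in 50.9% in db/db and salt. At least 3 of the genes were found in 17.3% (15.95% to 18.8%; 475 cells) in db/+ and in 7.67% (6.63% to 8.81%; 182 cells) in db/db and salt, and without thinning in 49.1% and 29.0%. These cells held 55.5% and 40.2% of all thinned UMIs of the group. The 5% of cells with most of these UMIs held 29.7% of them in db/+ and 33.7% in db/db and salt, and without Rsad2 35.2% and 46.5%. Without thinning the order of the libraries turned, with 36.6% in db/+ and 33.8% in db/db and salt. A lower mean by itself raises such a share, and the thinned cells had a mean of 2.11 and 1.21 of these UMIs. The top 1%, 28 and 24 cells, held 10.8% and 11.6%. At most 9 genes were found in a thinned db/+ cell and 8 in a thinned db/db and salt cell.

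The 10 endothelial-like cells with the highest share of these UMIs, before thinning, drew between 1.48% and 3.27% of their UMIs from the 10 genes in db/+ and between 0.801% and 1.95% in db/db and salt, while the median cell drew 0.0834% and 0.0414%. In each of the 10 db/+ cells 8 or more of the genes were found, and in the db/db and salt cells 6 or more. None of the 20 held a leukocyte marker UMI, and 2 of the db/+ cells were cycling. Without the 5% of cells with most UMIs of these genes the median ratio in endothelial-like cells was -0.96.

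In fibroblast-like cells the UMIs were held by fewer cells still. At least 3 of the genes were found in 2.61% (1.79% to 3.66%; 32 of 1226 thinned cells) in db/+ and in 1.10% (0.57% to 1.92%; 12 of 1089) in db/db and salt. The 5% of cells with most UMIs held 61.7% and 66.5% of them. A lower mean by itself raises such a share and lowers the share of cells with at least 3 genes. Thinned fibroblast-like cells had a mean of 0.436 and 0.247 of these UMIs, against 2.11 and 1.21 in endothelial-like cells. How much of the difference between the classes follows from the mean was not tested. One db/+ fibroblast-like cell had 229 UMIs of the group and showed all 10 genes, and one db/db and salt cell had 225 UMIs and 8 genes. That cell also held 46 of the 145 Rsad2 UMIs of its class. Without the 5% of cells with most UMIs of these genes the median ratio in fibroblast-like cells was -0.36. Markers of other cell types moved with these cells. All 8 endothelial markers were found in the 32 db/+ cells, at a summed 763 CPM against 186 in the rest (4.09-fold), and 7 of 8 in the 12 db/db and salt cells, at 305 against 175 (1.74-fold). The 8 capillary markers stood at 1926 against 587 CPM and at 1608 against 441. The 8 proliferation markers stood at 467 against 41.4 CPM in db/+ and had no UMI in the 12 db/db and salt cells. All 8 leukocyte markers were at 0 in the cells of both libraries, and the 8 fibroblast markers stood at 0.94 and 0.87 times the level in the rest. The part of these markers in the result was not tested.

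**Figure D4:**
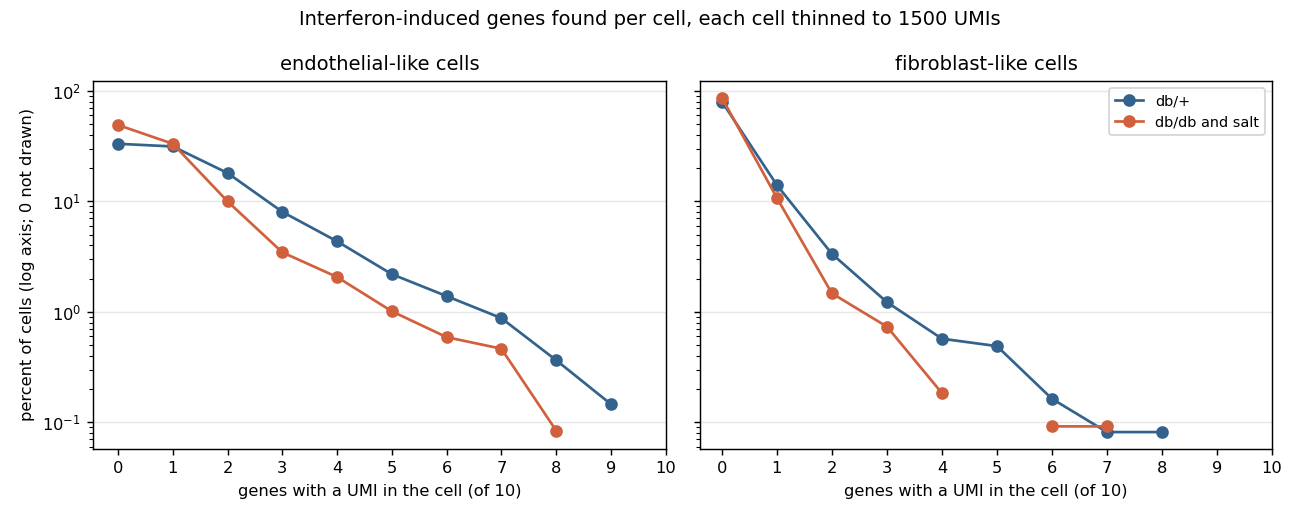
Percent of cells (log axis) in which a given number of the 10 genes had a UMI, each cell thinned to 1500 UMIs, in both libraries. From 2 genes upwards the endothelial-like points of db/+ lie above those of db/db and salt, and in fibroblast-like cells most cells show none of the genes.

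For a single gene the spread over cells was given as the Fano factor, the variance over the mean. It is 1 for counts that fall on cells at random. At equal unevenness it rises with the mean, which was 0.783 UMIs for Rsad2 and 0.023 for Oasl1 in thinned db/+ endothelial-like cells. Over 8123 genes of these cells the median Fano factor was 1.03. It was 2.73 for Rsad2, 1.98 for Isg15, 1.77 for Ifit2, 1.72 for Ifit1 and 1.62 for Ifit3, and between 94.6% and 99.6% of genes lay below each member except Oasl1 (84.2%). In db/db and salt Ifit1 had the highest value, 2.39, and Usp18 the lowest, 1.08 (74.4% of genes below). Rsad2 was found in 39.5% (37.6% to 41.3%) and 33.1% (31.2% to 35.1%) of thinned endothelial-like cells, Isg15 in 21.0% (19.4% to 22.5%) and 9.14% (8.01% to 10.4%), and Ifit1 in 11.1% (9.98% to 12.4%) and 6.49% (5.53% to 7.56%). In fibroblast-like cells thinned in the same way, Isg15 was found in 6.36% and 1.38%, Ifit3 in 5.95% and 4.68% and Rsad2 in 1.79% and 1.19%. The endothelial markers Pecam1, Cdh5 and Cldn5 were found in 1.31% to 3.43% of these db/+ and in 1.01% to 3.03% of these db/db and salt fibroblast-like cells. Their shares among endothelial-like cells ranged from 43.7% to 87.5% (db/+) and from 47.6% to 91.9%. The Rsad2 shares in both libraries and the Isg15 share in db/db and salt lay in the range of these markers in fibroblast-like cells. The level of Isg15 in db/db and salt was 18.8% of that in endothelial-like cells, above the 1.37% to 2.28% of the markers.

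The genes were found together in the same endothelial-like cells, Rsad2 less so than the others. For each gene, cells with UMIs of at least 3 of the other 9 genes were set against the rest. The mean level of Ifit1 was 6.59 times higher in such cells in db/+ and 15.9 times higher in db/db and salt. For Ifit3 the ratios were 7.26 and 11.4, for Isg15 5.45 and 8.09, and for Oasl1 6.97 and 14.4. The ratios were lowest for Rsad2, at 2.70 and 3.06, and Cmpk2 stood at 4.35 and 4.53. Rsad2 was found in 36.3% and 31.4% of the remaining cells, and 34.4% and 57.0% of its UMIs came from cells with none of the other 9 genes, which were 1333 of 2738 and 1652 of 2373 cells. Ifit1 has Rsad2 among its other genes, and so fewer such cells, 944 and 1189, which held 8.66% and 10.6% of its UMIs.

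Over all endothelial-like cells of a library (2934 and 2476), the Pearson correlation of log-scaled UMIs was 0.51 between Ifit1 and Ifit3 in db/+ and 0.55 in db/db and salt, and 0.51 and 0.50 for the strongest pairs with Isg15. The median over the 45 pairs was 0.33 and 0.30. The median of the 9 pairs of Rsad2 was 0.24 and 0.20, the lowest of the 10 genes in both libraries. Cells of a library share its preparation and differ in depth, so these correlations are descriptions.

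**Figure D5:**
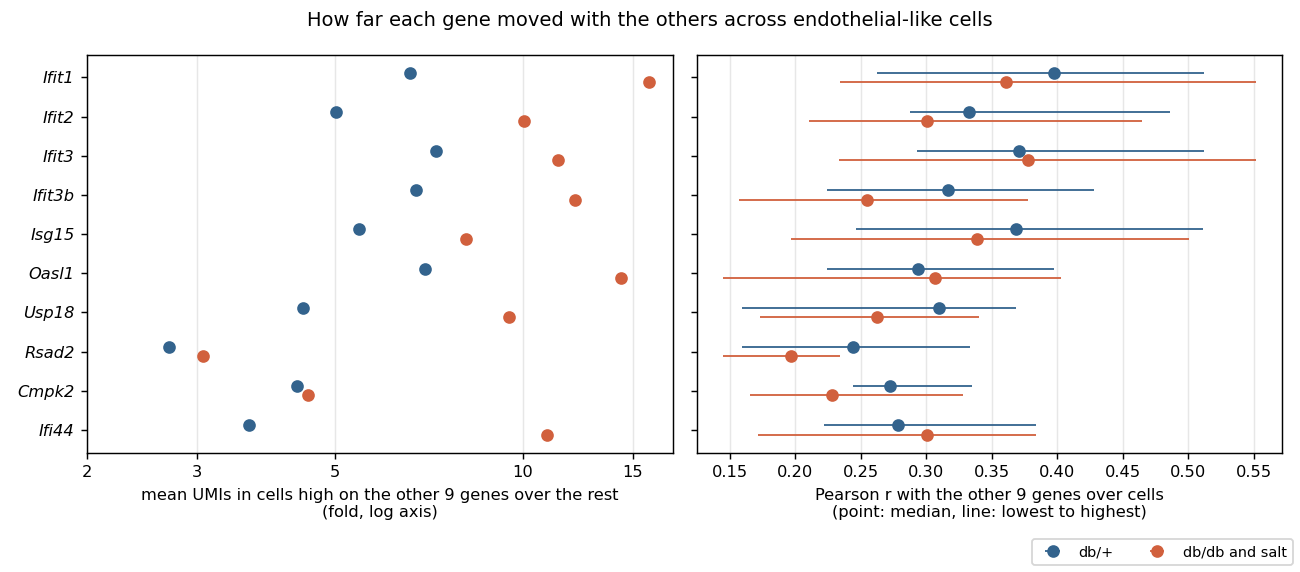
Left: mean thinned UMIs of each gene in endothelial-like cells with at least 3 of the other 9 genes, over the mean in the remaining cells (fold, log axis). Right: Pearson correlation over cells with the other 9 genes, the point giving the median and the line the lowest to the highest; Rsad2 has the lowest point in both panels in both libraries.

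Cells with at least 3 of the genes were found in every endothelial subtype except db/db and salt cycling cells (0 of 36, interval up to 9.74%). In db/+ the share ran from 12.2% of angiogenic-like to 22.0% of cycling cells, and in db/db and salt from 6.72% of venous-like to 8.72% of capillary-like cells. They held a median of 5905 UMIs against 5335 in the remaining db/+ cells and 5561 against 5422 in db/db and salt. Their mitochondrial share was 4.45% against 4.59% and 5.16% against 5.06%. The summed level of 12 dissociation and early response genes was 0.98 and 1.02 times that of the remaining cells. Leukocyte markers gave 4 UMIs in these cells in db/+, with 6 of 8 markers at 0, and 0 UMIs in db/db and salt. Plasmacytoid dendritic markers gave 10 and 8 UMIs, with 3 of 4 markers at 0 in each library.

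The lower db/db and salt levels were seen outside these cells as well. In endothelial-like cells with fewer than 3 of the genes among their thinned UMIs the median log2 ratio was -0.67, and in cells with at least 3 it was -0.23, while it was -0.93 over all cells. Isg15 had ratios of -1.22 and -0.67 in those groups, and Ifit2 -0.98 and -0.41. Ifit1 was at -0.66 and 0.11. The groups were cut on the same genes, so that these ratios are a description of where the UMIs lay. In fibroblast-like cells, grouped in the same way on thinned UMIs, the medians were -0.31 outside and 0.04 within the 32 and 12 cells with at least 3 genes. Cells grouped on all their UMIs gave medians of -0.39 in endothelial-like and -0.13 in fibroblast-like cells with fewer than 3 genes, nearer to 0 than with thinned UMIs.

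The rest of the pathway was described from lists of other genes, which like the members were chosen with earlier results known. Of the other antiviral effectors, 31 had a mean of at least 10 CPM in endothelial-like cells. At least 1.5-fold lower in db/db and salt were 17 of them, with none higher and a median ratio of -0.62. Over all genes with that mean, 1.51% were at least 1.5-fold lower and 0.508% at least 1.5-fold higher in endothelial-like cells. In fibroblast-like cells 0.966% of all genes were lower by that much. The counts of every list below stand against these shares. Bst2 (tetherin), which holds budding virus at the cell surface, was at 959 CPM in db/+ and 255 in db/db and salt, a ratio of -1.87. Ifi47 (-1.56), Ifi27l2a (-1.48) and Ifi204 (-1.16) had the next largest ratios. In fibroblast-like cells 11 of 29 were at least 1.5-fold lower, with a median of -0.43, and Bst2 (-1.31), Trim30a (-1.07), Ifi203 (-0.97) and Ifi204 (-0.81) had the largest ratios.

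Of the genes that lean to interferon gamma, all 18 with that mean level were at least 1.5-fold lower in endothelial-like cells, against 1.51% of all genes. Their median was -1.75, a larger difference than that of the 10 genes. Cd74, the chaperone of class II antigen molecules, was at 223 CPM in db/+ and 2.41 in db/db and salt. H2-Ab1, a class II molecule, was at 89.7 and 2.87, Iigp1, an immunity-related GTPase, at 664 and 134, and Igtp at 163 and 27.2. In fibroblast-like cells 7 of 12 were at least 1.5-fold lower, with a median of -0.64, and Iigp1 (-1.54), Cxcl10 (-1.25), Gbp3 (-0.81) and Psmb8 (-0.72) had the largest ratios.

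Sensors and IRF factors differed less. In endothelial-like cells 2 of 10 were at least 1.5-fold lower and the median was -0.36. These were Zbp1, a sensor of Z-form nucleic acid, at 46.4 and 1.15 CPM, and Irf7, the factor that amplifies type I interferon, at 117 and 52.5 (-1.03); Irf1 (-0.53) and Ifih1 (-0.50) came next. In fibroblast-like cells 1 of 9 was at least 1.5-fold lower, Irf7 (-0.62), and the median was -0.18. Irf8 was at 30.7 and 50.2 there (0.57), and Irf9 (-0.33) and Ddx58 (-0.31) had small ratios. Of 15 receptors, signalling genes and brakes, 4 were at least 1.5-fold lower in endothelial-like cells, with a median of -0.13; among them were Ube2l6, the Isg15-conjugating enzyme (-0.91), Herc6, its ligase (-0.83), and Stat2 (-0.62). None of the 15 was at least 1.5-fold lower in fibroblast-like cells, where all 15 ratios lay below 0 with a median of -0.18, and Ifngr1 (-0.37), Stat2 (-0.34), Irf9 (-0.33) and Ifngr2 (-0.33) had the largest ratios. Of the 11 interferon genes themselves, 1 UMI of Ifnz in a db/+ fibroblast-like cell was the only one among all kept barcodes of both libraries. In endothelial-like cells a count of 0 allows up to 0.146 CPM in db/+ and 0.172 in db/db and salt, so a source of interferon was not detectable in these cells at this depth.

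Outside the 10 genes, those whose UMIs followed the summed members most closely over endothelial-like cells were taken by the lower of the Pearson correlations in the libraries, among 10998 genes. The first 10 included Rtp4 (0.33), Iigp1 (0.30), Irf7 (0.30), Oasl2 (0.30), Parp14 (0.29), Ifi203 (0.29), Gbp7 (0.27), Xaf1 (0.26) and Rnf213 (0.25). The median gene had correlations of 0.019 and 0.0099. Of these 10 genes 9 stand in one of the interferon lists, and Rnf213 in none. All 10 were lower in endothelial-like cells of db/db and salt, from -0.34 for Ifi203 to -2.23 for Iigp1. Ifi203 was at 413 and 324 CPM, which made it the one of these genes with the smallest ratio.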

How the data were processed

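The deposited files hold raw UMI counts, 1 value for each gene and barcode, from Cell Ranger 6.0.2 per the file headers. The submitters' processing notes list Cell Ranger, Seurat and GRCm38 (mm10); the choice of barcodes, and whether hearts were pooled, are not stated in the sources used here. The db/+ library held 44935235 UMIs in 5676 barcodes and the db/db and salt library 40974634 in 4751.

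Barcodes with over 10% mitochondrial UMIs (609 and 544) or under 500 detected genes (289 and 165) were left out. Scrublet in scanpy 1.11.5, at an expected rate of 0.8% per 1000 cells, marked 64 of 4948 (1.29%) and 50 of 4144 (1.21%) as doublets, which were removed. A lineage needed at least 3 marker UMIs and 75% of the UMIs of the endothelial, fibroblast and mural lists. Barcodes short of either limit (212 and 156) were left out as mixed. Barcodes with at least 3 cardiomyocyte, Schwann, mesothelial or erythroid markers or 2 leukocyte markers (252 and 163) were set aside. Endocardial-like cells needed 4 of 8 markers and, in place of the 75%, only 25% of the lineage marker UMIs from the endothelial list. Lymphatic-like and cycling cells needed 3 markers. An endothelial subtype needed a mean marker score of 0.3 with a lead of 0.2, to which 602 and 502 cells were near (within 0.05). All of these limits were chosen with the data in view, and the classes may differ from the authors' own.

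Sums of UMIs for each library and class were divided by the total of the class, with exact Poisson intervals; shares of cells have exact Clopper-Pearson intervals, both at 95%. The log2 ratio has a pseudocount of 10, which understates the ratio of low genes. The calculations were tested on simulated data. Positions are from GENCODE M21. Besides the members, the text names up to 4 genes of each list and class, by absolute ratio, and the 10 genes most alike over cells, of which 1 gene is not reported here. The members, lists and markers were chosen with earlier results of these data known. Alternatives covered the pseudocount, scaling (edgeR 4.0.16 TMM), thinning, the mitochondrial limit, doublets and the cells with most UMIs, with Python 3.11.15 and R 4.3.3.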

Additional observations from a re-analysis of the deposited data

Results flagged for a closer look

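Rsad2 went against the other cell classes in endocardial-like cells, with a log2 ratio of 1.06 (28.4 CPM in db/+ and 70.4 in db/db and salt) where mural-like cells gave -1.08. The difference between the classes was not tested. It rests on 14 and 43 UMIs in 6 and 8 cells, of which the highest cells held 5 and 15.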

How the results depend on the processing

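The median log2 ratio of the 10 genes stayed below 0 under every alternative tried. In endothelial-like cells it was -1.05 with a pseudocount of 1, -0.57 with 50, and -0.39 without cells that hold at least 3 of the genes among all their UMIs (49.1% and 29.0% of cells at full depth), a step that removes UMIs of these genes by construction; the other 9 alternatives gave values from -1.01 to -0.87. In fibroblast-like cells it was -0.91 with a pseudocount of 1, -0.22 with 50, -0.31 with cells thinned to 1500 UMIs, -0.13 without cells holding at least 3 genes among all their UMIs and -0.36 without the 5% of cells with most member UMIs. Thinning turned the fibroblast-like ratios of Oasl1 (0.23) and Rsad2 (0.029), both at low levels; the cause was not tested. Of 60 alternatives for single genes, 30 stayed within the counting interval, 28 moved and 2 turned.

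The share of endothelial-like cells with at least 3 genes depended on depth and on the number asked for. In db/+ it was 49.1% without thinning, 34.9% at 3000 UMIs, 35.4% for at least 2 genes, 4.97% for at least 5 and 11.8% without Rsad2. In db/db and salt the same settings gave 29.0%, 15.8%, 17.7%, 2.15% and 5.31%, each below db/+. The share of UMIs in the top 5% of cells was 36.6% without thinning, 27.5% at 3000 UMIs and 35.2% without Rsad2 in db/+, and 33.8%, 32.0% and 46.5% in db/db and salt, which lay above db/+ except without thinning. Alternatives without Rsad2, without the top 1% or 5% of cells, and with a 95% lineage share, for mural cells and the medians, as well as subtypes without the top 3 cells, were added after seeing the data. No paired analysis was possible because each group has 1 library. Small numbers of cells limit what mural-like, endocardial-like and lymphatic-like cells can show.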
